A study of Mus musculus with 3 samples.

Results

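The genes described here encode the cohesin ring and the proteins that load it and release it from DNA. They were chosen by symbol from the deposited count tables and are 10 of 52636 genes: the ring genes Rad21, Smc1a, Smc3, Stag1 and Stag2, the loader genes Nipbl and Mau2, and the release genes Wapl, Pds5a and Pds5b. The cells were JM8.N4 mouse ES cells of the C57BL/6N strain, grown without feeders in serum with LIF and the 2i inhibitors PD0325901 and CHIR99021, in which RAD21 is fused to an auxin-inducible degron. Control cells and cells given 500 µM auxin (IAA) for 6 h both carried this fusion, so that the control is the untreated degron line and not a wild-type line. Transcripts were measured by Smart-SCRB, a plate-based method in which sequence reads are collapsed to distinct molecules by a random tag (the unique molecular identifier, UMI), in 3 replicates that each held both conditions.

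Cohesin is a ring of SMC1A, SMC3 and the kleisin RAD21, to which a STAG protein binds. NIPBL and MAU2 help the ring to load onto chromatin and NIPBL stimulates the extrusion of DNA loops, whereas WAPL, together with PDS5A or PDS5B, opens the ring and releases it. The same ring holds sister chromatids together from DNA replication until separase, the product of Espl1, cuts RAD21 at the onset of anaphase. Auxin acts on the tagged RAD21 protein through the proteasome and not on its messenger RNA, so that the Rad21 counts are no check of the depletion.

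The promoters of the ring's most abundant transcripts, Smc3 and Smc1a, are shown because Smc1a, unlike Smc3, passed the test for a difference along the cell cycle. Each line gives the 250 bases before the RefSeq start site in GRCm38.p6, 5′ to 3′ on the strand of the gene, at chrX:152016178-152016427 (+) for Smc1a and at chr19:53600146-53600395 (+) for Smc3. Capitals mark a match to CCAAT on the opposite strand.
Smc1a: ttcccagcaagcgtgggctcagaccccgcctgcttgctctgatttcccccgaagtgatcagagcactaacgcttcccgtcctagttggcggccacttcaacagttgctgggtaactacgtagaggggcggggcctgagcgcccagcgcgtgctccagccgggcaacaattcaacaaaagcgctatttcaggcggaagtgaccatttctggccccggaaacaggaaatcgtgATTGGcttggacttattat
Smc3: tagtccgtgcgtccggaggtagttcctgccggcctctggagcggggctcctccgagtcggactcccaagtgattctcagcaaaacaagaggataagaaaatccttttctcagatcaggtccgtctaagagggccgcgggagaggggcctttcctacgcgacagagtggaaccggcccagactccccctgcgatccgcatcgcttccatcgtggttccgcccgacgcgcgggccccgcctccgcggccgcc
In the Smc1a window the CCAAT match begins 19 bases before the start site, and a match to TTTCCCGC, one form of the E2F motif, begins at base 38 after it. The Smc3 window held no match to CCAAT, TTTCCCGC, TTTGGCGC or TTTGAA on either strand. Windows of 300 bases, from 250 before to 50 after the start, were matched for 7 of the 10 genes, and motifs were not particular to Smc1a. CCAAT stood in 4 of them, those of Smc1a, Stag1, Wapl and Pds5b, TTTCCCGC in those of Smc1a and Stag1, TTTGGCGC in that of Pds5a and TTTGAA in that of Pds5b. Over all 32851 windows, 37.4% held CCAAT, 17.9% TTTGAA, 1.07% TTTCCCGC and 0.514% TTTGGCGC on either strand. A match is a description of letters and not a bound site.

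Of 1536 wells on 16 plates, 1335 passed the study's filter of more than 2600 detected genes. The deposited annotation and the study's source values disagree on the condition of 2 plates of replicate 3, and their 168 cells were left out, which left 624 control and 543 auxin-treated cells on 14 plates. Summed over the cells of a replicate and condition (a set), 6064936 to 50448320 UMIs were counted, with medians of 72317 to 187088 UMIs per cell. The median was higher in auxin-treated than in control cells in each replicate. Each plate was made into its own library, and the 12 plates of replicates 2 and 3 used the same 96 well barcodes, while each of the barcode sets of replicate 1 was used on 1 control and 1 auxin plate. Both conditions of a replicate shared a sequencing run, and replicate 1 was read on another instrument than replicates 2 and 3. In replicate 1 the deposited annotation calls the cells RAD21 positive and negative, which were taken as control and auxin-treated. The replicates stood apart from each other. In replicate 1, 110 genes reached 20 CPM (UMIs per 1000000) that had 0 UMIs in both replicates 2 and 3, 15 genes showed the reverse, and no gene separated the replicates so in any other way. They include genes that cells in general use, such as Cox4i1 (2488 CPM in replicate 1), a subunit of cytochrome c oxidase, and Rpl13 (365 CPM), a ribosomal protein, so that such a gene is only listed at 0, and whether replicate 1 was counted with another annotation or setting was not tested. None of these genes was a cohesin gene. Of 8 ES cell markers, Sox2 was among them, Pou5f1 was at 228 and 273 CPM in replicate 1 and at 5.81 to 12.5 CPM in the others, and Nanog was at 38.9 and 58.6 CPM in replicate 2 against 495 to 563 CPM elsewhere. In replicate 2, Klf4 (1.17 and 2.75 CPM), Esrrb (6.78 and 17.7), Zfp42 (73.1 and 83.5) and Dppa5a (2118 and 3560) were also below their levels in every other set, which were at least 27.5, 61.7, 184 and 6308 CPM. Tdgf1 was at 508 to 642 CPM in all sets, and the 12 markers of other cell types summed to 19.9 to 40.4 CPM. This sum hides differences between replicates. Pax6 was at 18.0 and 19.2 CPM in replicate 2, in 41.2% and 39.7% of cells, against 0.388 to 2.31 CPM elsewhere. Gata4 was in 23.2% and 19.7% of cells of replicate 2, against 2.98% to 14.1% elsewhere. Sox1 was at 26.8 and 10.8 CPM in replicate 1 and had 0 UMIs in replicates 2 and 3. Levels are therefore given for each replicate. Values that cross replicates, such as an order by mean level or a fold between replicates, are descriptions of these tables, and the part of these differences in them was not tested.

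Transcripts of the ring differed in level by more than an order of magnitude. As Smart-SCRB counts molecules at one end of the transcript, CPM were compared between genes without division by length. Smc3 was at 575, 760 and 681 CPM in control cells and at 548, 819 and 671 CPM in auxin-treated cells of replicates 1, 2 and 3. Smc1a, its partner in the ring, was at 225, 314 and 232 CPM in control and 201, 293 and 227 CPM in auxin-treated cells. The lowest Smc3 value was above the highest Smc1a value, and the ratio of Smc1a to Smc3 was 0.368 ± 0.029 (SD over 6 sets), from 0.338 to 0.413.

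Rad21, which encodes the kleisin that closes the ring, had far lower counts. Its level was 20.9, 31.2 and 42.4 CPM in control cells and 19.3, 34.0 and 45.2 CPM in auxin-treated cells of replicates 1, 2 and 3. The ratio of Rad21 to Smc3 was 0.0473 ± 0.0139 (SD over 6 sets). The tables also hold 11 transgene sequences, of which EGFP had 0 UMIs over all wells of each replicate, which allows up to 3 UMIs, beside 748, 3245 and 1125 UMIs of Rad21. As the tag on RAD21 includes GFP, the EGFP row did not count the tagged transcript, for a reason that was not tested. The paper describes biallelic insertion of this tag at the endogenous Rad21 gene, and the reads come from the 3′ end. Whether the Rad21 row counts the tagged transcript in full was not tested. Its level against other genes is therefore a description of counts.

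Stag1 and Stag2 encode alternative subunits, of which a ring holds one. Stag1 was at 52.8, 84.2 and 113 CPM in control and 55.9, 100.1 and 106 CPM in auxin-treated cells. Stag2 was at 11.6, 34.2 and 13.2 CPM in control and 14.8, 35.8 and 12.4 CPM in auxin-treated cells. It was the lowest of the 10 genes in both sets of replicates 1 and 3 but not in replicate 2, where Rad21 was the lowest. Stag1 exceeded Stag2 in all 6 sets, and the ratio of Stag2 to Stag1 ranged from 0.117 in both sets of replicate 3 to 0.406 in control cells of replicate 2. The replicates thus differed more in this ratio than did the conditions, with a difference between auxin and control of 0.27, -0.18 and 0.00 on the log2 scale in replicates 1, 2 and 3 (mean 0.03 ± 0.23 SD, exact permutation of signs over replicates, p = 0.75, two-sided). With 3 replicates this test cannot give a p under 0.25.

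Of the loader genes, Nipbl was at 106, 105 and 83.3 CPM in control and 101, 129 and 100.2 CPM in auxin-treated cells. Mau2 was at 71.8, 75.2 and 69.6 CPM in control and 79.9, 71.7 and 65.5 CPM in auxin-treated cells. Mau2 had the smallest fold of the 10 genes from its lowest to its highest control replicate, 1.08, beside a median of 1.77-fold over the 8677 genes with a mean of at least 10 CPM. Stag2 had the largest, 2.95.

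Of the release genes, Wapl was at 70.2, 104 and 108 CPM in control and 50.4, 88.8 and 73.4 CPM in auxin-treated cells, lower with auxin in each replicate. Pds5a was at 26.4, 52.0 and 36.4 CPM in control and 27.4, 36.3 and 30.4 CPM in auxin-treated cells. Pds5b was at 23.4, 32.0 and 23.4 CPM in control and 20.9, 38.1 and 24.5 CPM in auxin-treated cells. The alternative PDS5 genes were close in level, with a ratio of Pds5b to Pds5a of 0.793 ± 0.161 (SD over 6 sets). This ratio differed between auxin and control by -0.22, 0.77 and 0.33 on the log2 scale in replicates 1, 2 and 3 (mean 0.29 ± 0.49 SD, exact permutation of signs, p = 0.50, two-sided). The mean rests on replicate 2, with 0.06 without it, and was 0.55 without replicate 1.

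By mean CPM over the 6 sets, which crosses the replicates, the order was Smc3, Smc1a, Nipbl, Stag1, Wapl, Mau2, Pds5a, Rad21, Pds5b and Stag2. Of the 9 pairs of neighbours in this order, the ranges over sets did not overlap for Smc3 and Smc1a, Smc1a and Nipbl, and Mau2 and Pds5a, and the other 6 pairs could not be separated beyond their spread. Within each of the 6 sets Smc3 was first and Smc1a second. The place of Rad21 in this order carries the limit given with its counts.

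**Figure D1:**
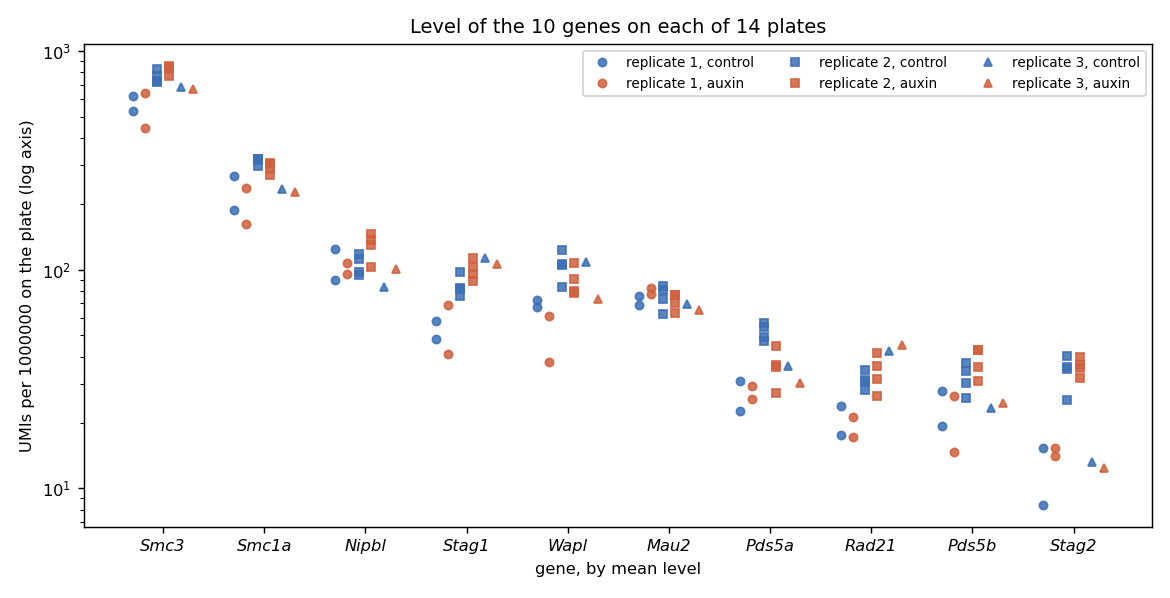
UMIs per 1000000 of each gene on each of 14 plates, on a log axis, with 1 point per plate, the marker giving the replicate and the colour the condition. Smc3 and Smc1a lie above the other 8 genes, and for Stag2 the points of replicate 2 lie above those of replicates 1 and 3.

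In single cells, Smc3 had a UMI in 98.4% to 100% of the cells of a set and Smc1a in 92.3% to 96.2%. Rad21 was detected in 36.3% of control cells of replicate 1 (exact binomial 95% interval 29.0% to 44.1%) and in up to 63.5% in replicate 3. Stag2 was detected in 31.0% to 72.5% of cells. With every cell thinned to 20000 UMIs, which left out 0 to 13 shallower cells per set, the mean share was 99.5% for Smc3, 88.6% for Smc1a, 66.9% for Stag1, 32.1% for Rad21, 29.0% for Pds5b and 25.8% for Stag2. In the 201 wells that failed the filter, with a median of 607 UMIs, Smc3 had a UMI in 30.8%, Smc1a in 21.9%, and Rad21 and Stag2 each in 3.98%. The intervals cover counting error only.

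By the mean of 6 sets, the spread between cells was smallest for the most abundant pair of genes and largest for the scarcest 4. The order of the genes between them differed between replicates. Overdispersion, the variance beyond counting error as a share of the squared mean with the UMI count of the cell as offset, was lowest for Smc3 (0.153, mean of 6 sets) and Smc1a (0.350). By these means Mau2, sixth in level, came next with 0.569, below the more abundant Nipbl (0.591), Stag1 (0.703) and Wapl (0.932). The mean of Stag1 rests on replicate 1, with 1.06 (control) and 1.38 (auxin). In replicate 2 Stag1 was below Mau2, at 0.531 against 0.618 (control) and 0.368 against 0.549 (auxin). The same held in replicate 3, at 0.378 against 0.514 (control) and 0.500 against 0.515 (auxin). Mau2 was above Nipbl for control of replicate 2 (Nipbl 0.583) and auxin of replicate 3 (Nipbl 0.433). The means were 1.42 for Pds5a, 1.69 for Pds5b, 1.70 for Rad21 and 2.27 for Stag2. The median over the 9517 genes with a mean of at least 1 UMI per cell was 1.24. These genes were not matched on level, so that no cohesin gene is called more or less variable than others of its level.

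**Figure D2:**
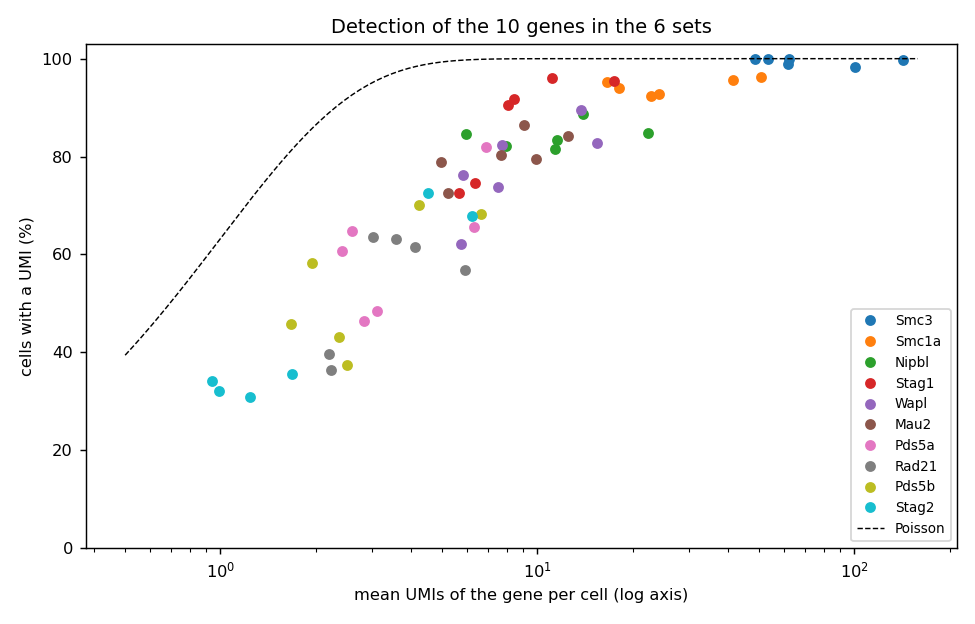
Share of cells with a UMI against the mean UMIs of the gene per cell, on a log axis, with 1 point per gene and set; the dashed line is the share that Poisson counting at that mean would give. All 10 genes lie on or below the line, Smc3 nearest to it and Rad21 and Pds5b of replicate 1 farthest from it.

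The question of the auxin comparison is whether loss of the RAD21 protein for 6 h was accompanied by a change in the transcripts of its partners. None of the 10 genes passed the test (edgeR quasi-likelihood test on UMIs summed per replicate and condition, Benjamini-Hochberg adjustment, threshold 0.05), beside 0 of 17514 genes tested in all (0% called). At an unadjusted p under 0.05 there were 33 genes and 0 cohesin genes in this fit, which does not use the pairing of the replicates. With DESeq2 no gene was called either, and 66 had a p under 0.05 before adjustment. The 95% intervals leave room for changes of some size. For Smc3 the log2 fold change was -0.01 with an interval from -0.43 to 0.41, and for Rad21 it was 0.04 with an interval from -0.71 to 0.79. The median log2 fold change was 0.02 over the 10 genes and 0.00 over all genes tested. With the replicate as a block, 3 genes were called in all (0.0171%) and 49 with DESeq2 (0.280%), none of them a cohesin gene. In the edgeR fit with the block, 1036 genes had an unadjusted p under 0.05, of which 1, Wapl, was a cohesin gene. The replicates pair the samples, and in the blocked edgeR fit the 95% intervals narrowed, to -0.18 to 0.16 for Smc3, -0.32 to 0.36 for Rad21 and -0.30 to 0.51 for Stag2, which spans -1.23 to 1.40 without the block.

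The lowest estimate was that of Wapl. On the plates of replicate 1, Wapl was at 67.7 and 72.5 CPM in control and 61.4 and 38.0 CPM in auxin-treated cells. In replicate 2 it was at 123, 83.4, 106 and 105 CPM on control plates and 79.5, 77.7, 107 and 90.8 CPM on auxin plates, and in replicate 3 at 108 CPM in control and 73.4 CPM in auxin-treated cells. Groups did not overlap in replicate 1 but overlapped in replicate 2. The log2 ratio of auxin to control was -0.48, -0.23 and -0.56 in replicates 1, 2 and 3, and the fitted value was -0.43 (SE 0.20, 95% interval -0.90 to 0.05, edgeR adjusted p = 1.00). With the replicate block the value was the same, with an edgeR unadjusted p = 0.00461 and adjusted p = 0.677. Its interval, which is not adjusted for the number of genes, ran from -0.69 to -0.17 and no longer included 0. Wapl was also lower in all 17 settings tried, from -0.52 to -0.27, with adjusted p from 0.214 upwards.

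Smc1a was lower with auxin in each replicate by a small amount, with log2 ratios of -0.16, -0.10 and -0.04. Its fitted value was -0.12 (SE 0.21, edgeR adjusted p = 1.00), and -0.07 without replicate 1. Pds5a was lower in replicates 2 and 3 by 0.52 and 0.26 on the log2 scale and at 0.05 in replicate 1. On the plates of replicate 2, Pds5a was at 54.6, 47.0, 57.2 and 49.4 CPM in control and 36.6, 35.7, 27.3 and 44.7 CPM in auxin-treated cells, without overlap. Nipbl had log2 ratios of -0.07, 0.29 and 0.27. Neither Pds5a nor Nipbl passed the test, with fitted values of -0.28 (SE 0.26) and 0.12 (SE 0.26). Pds5a was at -0.11 without replicate 2, and Nipbl was at 0.28 without replicate 1, 0.05 without replicate 2 and 0.07 without replicate 3.

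Across plates of replicate 1, Mau2 was higher on both auxin plates than on both control plates, beside 17.8% of all genes tested, and Wapl was lower, beside 13.3%. In replicate 2, Pds5a was lower on all 4 auxin plates, beside 5.78% of genes, and no cohesin gene was higher on all of them, beside 7.47%. The plates of a replicate were taken as technical repeats, and these counts are near the shares over all genes.

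**Figure D3:**
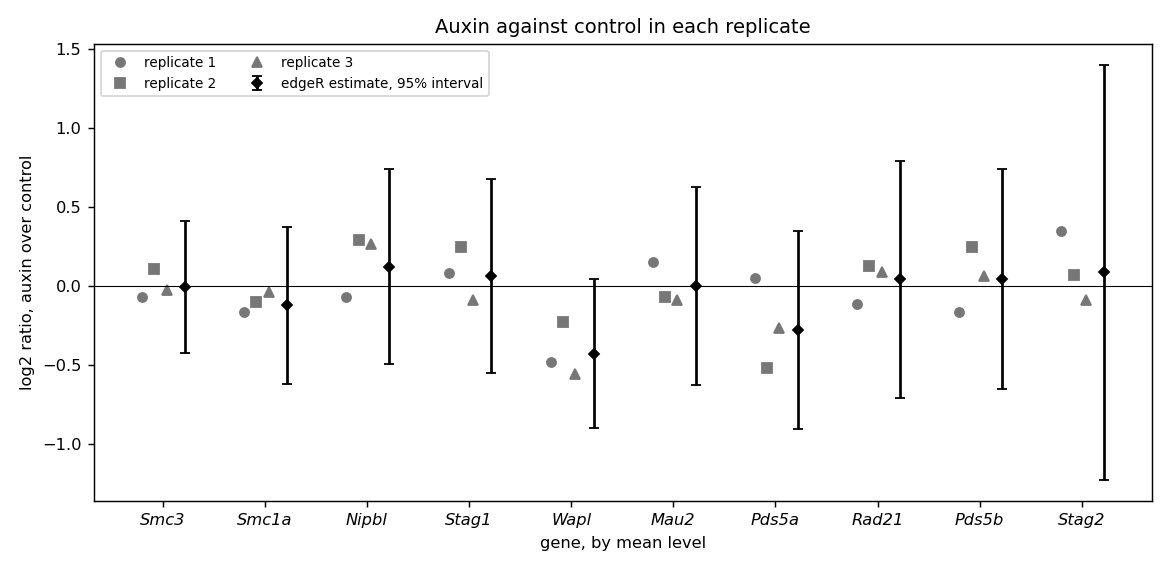
Log2 ratio of auxin to control for each gene, with grey markers for the 3 replicates and black diamonds with 95% intervals for the edgeR estimate over the 3 replicates. The intervals are those of the fit without a replicate block and all include 0, while with the block that of Wapl does not, and Wapl and Smc1a lie below 0 in all replicates.

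Genes that act on cohesin were described from a list of 19, of which 18 passed the filter on low counts. None of them was called in either direction with auxin by edgeR or DESeq2, and 0 had an unadjusted p under 0.05 in edgeR without the replicate block. The estimates farthest from 0 were those of the meiotic subunits Smc1b (-0.70, SE 1.06) and Stag3 (0.49, SE 0.76), and of Ddx11, a helicase of the replication fork (-0.27, SE 0.38). Smc1b was at 35.5 CPM in control cells of replicate 2, near Rad21, and at 2.66 and 9.23 CPM in those of replicates 1 and 3. It was lower with auxin in the sums of each replicate, by 0.32, 0.69 and 0.82 on the log2 scale, but in replicate 1 this rests on 48 UMIs in 5 control cells and 41 UMIs in 3 auxin-treated cells, and its plates overlapped in replicates 1 and 2. With the replicate block it was at -0.63 (95% interval -1.16 to -0.11, edgeR unadjusted p = 0.0226, adjusted p = 0.775), the 1 gene of the list with an unadjusted p under 0.05 in that fit.

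The relation of the cohesin genes to the cell cycle was examined within each plate. Cells were ordered by the summed CPM of 54 G2/M or 43 G1/S markers, none of them a cohesin gene or a gene of the list of 19, and cut into tertiles, and the UMIs of the high and low tertiles were summed per replicate and condition (edgeR with a block for the set). The tertiles are ranges of a score and not phases, and 24.8% of cells lay within 5% of a G2/M limit and 33.5% within 5% of a G1/S limit.

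Of the 10 genes, Smc1a rose with the G2/M markers. In control cells it went from 203 to 238, from 295 to 329 and from 217 to 264 CPM between the low and the high tertile of replicates 1, 2 and 3. In auxin-treated cells it went from 173 to 223, from 224 to 353 and from 171 to 252 CPM. The high tertile exceeded the low tertile in 6 of 6 sets, by 0.43 on the log2 scale (SE 0.08, 95% interval 0.25 to 0.60, edgeR adjusted p = 0.0147). Over all 13517 genes tested, 1.58% were called, 1.28% higher and 0.296% lower. The markers were not taken out of the genes tested, so that these shares include genes that formed the tertiles.

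The Smc1a call rests on all 3 replicates together. Without replicate 1, 2 or 3 the log2 fold change was 0.47, 0.38 or 0.41 and the adjusted p in edgeR rose to 0.0972, 0.133 or 0.181. In control cells alone it was 0.28 (adjusted p = 0.747) and in auxin-treated cells alone 0.59 (adjusted p = 0.0652), and the difference between the conditions was 0.31 (SE 0.15, edgeR adjusted p = 1.00), a term for which 0 of all genes were called (0%) and 286 had an unadjusted p under 0.05. Cells of the high tertile also held more UMIs, with set medians of 78378 to 191125 against 57140 to 130090 in the low tertile. With every cell thinned to 20000 UMIs, Smc1a kept a log2 fold change of 0.45 (SE 0.11, edgeR adjusted p = 0.0379).

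Smc3 was not called along the G2/M markers. Its high tertile was at 568, 735 and 635 CPM and its low tertile at 519, 747 and 703 CPM in control cells of replicates 1, 2 and 3, which overlap. In the fit the log2 fold change of Smc3 was 0.02, with a 95% interval of -0.12 to 0.15. The difference between Smc1a and Smc3 in this change was not tested. The remaining 8 genes did not pass. Stag2 was at 0.38 (SE 0.19, edgeR adjusted p = 0.486) and Rad21 at 0.30 (SE 0.21), and both were lower with every cell thinned to 20000 UMIs, at 0.20. Rad21 was at 0.08 without replicate 3 and 0.58 without replicate 1, with 0.15 over the control sets alone and 0.48 over the auxin sets alone. The other 6 ranged from -0.05 for Wapl to 0.22 for Pds5b. Pds5b was at 0.14 without replicate 1, 0.35 without replicate 2, 0.43 over the control sets alone and 0.03 over the auxin sets alone, and at 0.07 with the 2 plates of replicate 3 placed as annotated.

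The list of 19 gives the scale of changes along this axis. Of 18 genes tested, 5 were called higher in the high G2/M tertile and 0 lower. Plk1, a mitotic kinase that helps to remove cohesin from chromosome arms, rose by 2.18 (SE 0.22, edgeR adjusted p = 0.000122). Sgo2a and Sgo1, which encode shugoshins that protect cohesin at centromeres, rose by 1.43 and 0.94, Espl1 by 1.03 and Esco2, an acetyltransferase of SMC3, by 0.63. The count of 5 was 3 without replicate 1, 5 without replicate 2 and 3 without replicate 3. The change of Smc1a was below that of each of these 5 genes in its estimate.

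Along the G1/S markers no cohesin gene was called, beside 1.35% of 13527 genes, 1.03% called higher and 0.318% lower, shares that again include the markers. DESeq2 called 0 of the 10 as well, and Wapl alone had an unadjusted p under 0.05. In control cells it was at 80.3, 96.4 and 94.8 CPM in the low tertile and 69.3, 120 and 124 CPM in the high tertile of replicates 1, 2 and 3. In auxin-treated cells it was at 37.7, 90.0 and 62.1 CPM in the low and 54.5, 102 and 102 CPM in the high tertile. The log2 fold change was 0.34 (SE 0.12, edgeR adjusted p = 0.234), with 5 of 6 sets higher. Stag2 was lower in all 6 sets (-0.35, SE 0.18, edgeR adjusted p = 0.478), and Rad21 was at -0.35 (SE 0.21). Stag2 was at -0.22 without replicate 1, and Rad21 at -0.18 without replicate 3. Of the list of 19, Wdhd1, a replication fork protein, was called, with a rise of 0.95 (SE 0.16, edgeR adjusted p = 0.0121). This call was lost without replicate 1, 2 or 3 (adjusted p = 0.177, 0.0848 or 0.0991 in edgeR). The next largest estimates were those of Rec8 (-0.65, SE 0.36) and Plk1 (-0.63, SE 0.16), which did not pass.

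**Figure D4:**
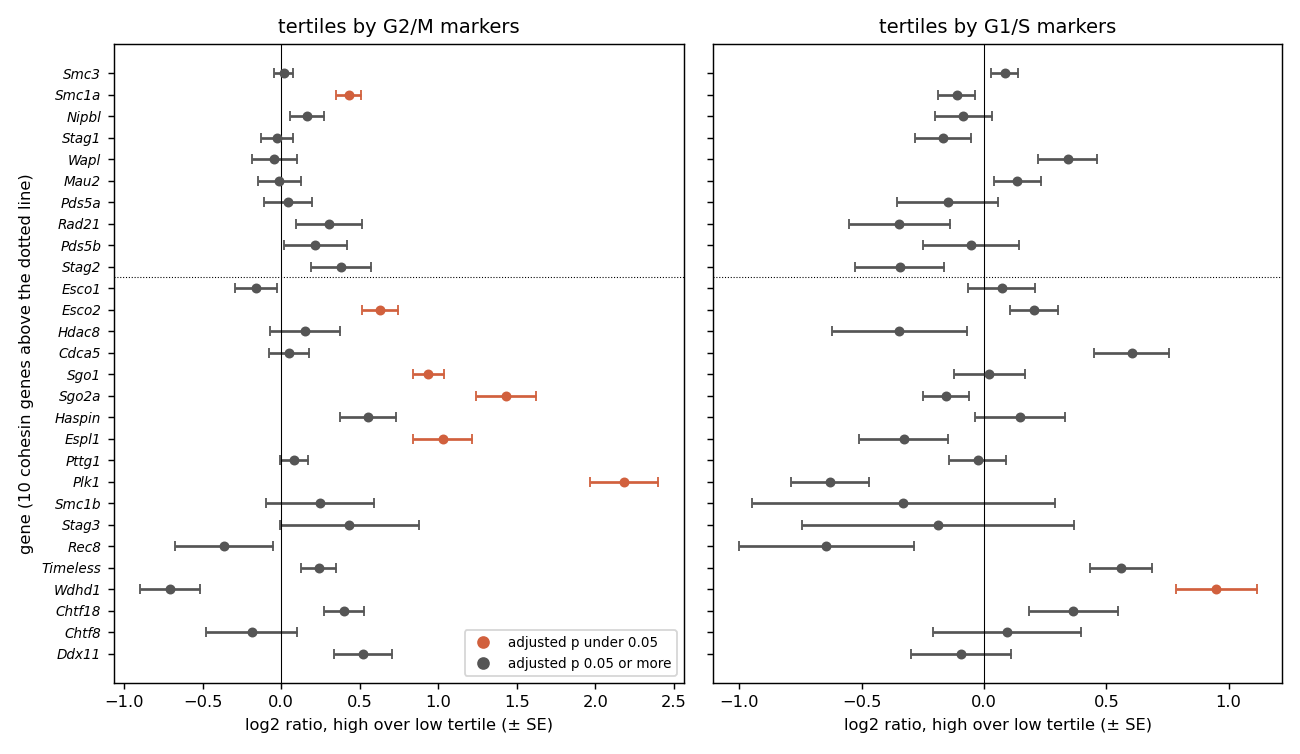
Log2 ratio of the high to the low tertile of cells by G2/M markers (left) and G1/S markers (right), with standard errors, for the 10 cohesin genes and the 18 tested genes that act on cohesin. Orange points passed an adjusted p of 0.05, which among the 10 genes was Smc1a for the G2/M markers.

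Ranks across single cells were compared as well. The Spearman correlation of CPM with the summed G2/M markers was 0.19 for Smc1a (mean of 6 sets, from 0.12 to 0.30) and 0.14 for Rad21 (0.03 to 0.32), and 0.01 for Smc3 (-0.12 to 0.09). With the G1/S markers it was 0.10 for Smc3 (0.03 to 0.13) and for Wapl (-0.04 to 0.16). The summed G2/M markers themselves correlated with the UMI count per cell at 0.27, and with that count Rad21 correlated at 0.16 (-0.02 to 0.28), close to its 0.14 with the markers, Smc1a at -0.06 and Smc3 at -0.11. These points are cells that share plates and depth, and no test was made.

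The 10 genes were hardly correlated with each other across cells. The median Spearman correlation of CPM over the 45 pairs of the 10 genes was 0.03 (mean of 6 sets), beside 0.02 over all pairs of the 9517 genes with a mean of at least 1 UMI per cell. These means hide opposite directions, since the median of the 45 pairs was above that of all pairs in both sets of replicates 1 and 3 (0.0641 against 0.0108 in control cells of replicate 1) and below it in both sets of replicate 2 (0.00786 against 0.0387 in control cells). The highest pair was Smc1a with Smc3 at 0.12, from -0.07 to 0.25 over the sets, followed by Smc3 with Wapl at 0.10 (-0.09 to 0.22). The lowest was Smc1a with Pds5a at -0.08 (-0.16 to -0.000640). Rad21 with Smc3 was at -0.05, and Nipbl with its partner Mau2 at 0.03. The counts are sparse, and these weak correlations are given as descriptions.

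The median over the 45 pairs differed between auxin and control by -0.0353, 0.000723 and 0.0424 in replicates 1, 2 and 3 (mean 0.00262 ± 0.0389 SD, exact permutation of signs, p = 0.75, two-sided). The difference had no common direction. On raw counts, which rise and fall together with the UMI count of a cell, the median over the pairs was 0.154 in place of 0.0281, the difference between auxin and control was 0.0522, and the pair of Smc1a and Smc3 was at 0.36.

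**Figure D5:**
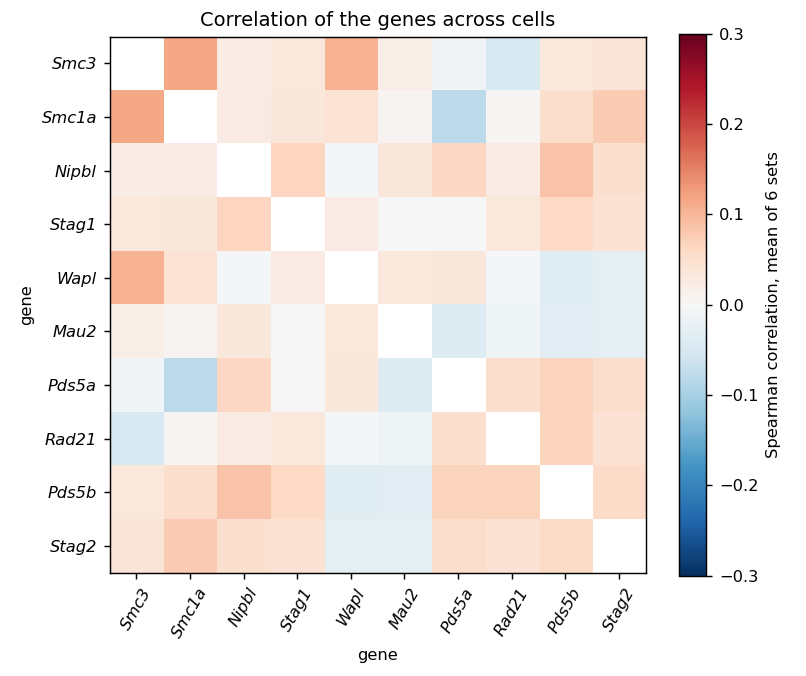
Spearman correlation of CPM across cells for each pair of the 10 genes, mean of 6 sets, with genes ordered by level and the colour scale running from -0.3 to 0.3. The pairs lie between -0.08 and 0.12, with Smc1a and Smc3 the highest.

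Among all 9517 genes, the genes most like a cohesin gene reached a mean correlation of 0.2 for Smc1a and Smc3. For Smc1a these were Ncl (0.23), which encodes the nucleolar protein nucleolin, Top2a (0.21), which encodes a topoisomerase of dividing cells and is one of the G2/M markers, and AC153546.1 (0.21). For Smc3 it was AC153546.1 (0.24). The top gene of each of the other 8 lay between 0.12 for Stag1 and 0.17 for Rad21, whose nearest gene was Aspm, a spindle pole gene.

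In GENCODE vM21 on mm10 (GRCm38) the genes lie on 7 chromosomes. Smc1a (chrX:152016428-152062694, +) and Stag2 (chrX:42149317-42277185, +) are X-linked. Rad21 (chr15:51962240-51991747, -) and Nipbl (chr15:8290617-8444463, -) share chromosome 15, and Pds5a (chr5:65605721-65698273, -) and Pds5b (chr5:150673739-150810690, +) share chromosome 5. Smc3 (chr19:53600398-53645833, +), Stag1 (chr9:100597798-100959375, +), Mau2 (chr8:70016123-70042734, -) and Wapl (chr14:34673928-34747983, +) lie alone. The annotation places other genes within Pds5a, Pds5b, Stag1, Stag2 and Smc1a, none of which covers the 3′ end, where these reads arise. Whether the counting assigned intronic reads to them was not given in the sources used here.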

How the data were processed

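The authors aligned trimmed reads to mm10, assigned them to well barcodes and UMIs, and deposited raw UMI counts of every gene in every well, without normalization. The aligner, counting program and annotation are not given in the sources used here. The members and lists were chosen with earlier results of these data known.

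The study's limit of 2600 detected genes per cell was applied. CPM were UMIs per 1000000 UMIs in genes, leaving out 92 ERCC and 11 transgene rows. Counts summed per replicate and condition were tested with edgeR 4.0.16 in R 4.3.3 (TMM, filterByExpr), without a block in the auxin comparison. The replicate numbers pair the samples, as each replicate held both conditions and the deviations of its sums correlated with 0.917, 0.864 and 0.761. A fit with the replicate as a block and DESeq2 1.42.0 were alternatives. Whether the replicates were separate cultures is known only from the study's statement on biological replicates. All 10 genes are named, with the 3 of the list of 19 whose estimates lie farthest from 0 in a comparison and every one called; likeness is given from a correlation of 0.2. Other steps ran in Python 3.11.15 (scipy 1.17.1, numpy 2.4.6, pandas 2.3.3).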

Additional observations from a re-analysis of the deposited data

How the results depend on the processing

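With auxin, 0 of the 10 genes were called in all 17 settings, and the replicate block changed no call of theirs, while its count over all genes was 3 in place of 0, and 49 with DESeq2. Wapl was at -0.43 with the block as without it (edgeR adjusted p = 0.677). Estimates near 0 changed sign without reaching the threshold. Rad21 was at -0.0149 to 0.114 when 1 replicate was left out, at -0.0398 and -0.0410 (with the block) with replicate 3 as annotated, and at -0.0183 and -0.0239 with the block and without replicate 2 or 3. Smc3 was at -0.0546 to 0.0492 with 1 replicate left out, 0.0175 with no filter on low counts, 0.00279 and 0.00353 (block) with replicate 3 as in the source values, and 0.0467 with the block and without replicate 1. Stag1 was at -0.0190 to 0.141 with 1 replicate left out and at -0.00835 with the block and without replicate 2. Mau2 was at -0.0762 to 0.0446 with 1 replicate left out, -0.0137 with the block, -0.0140 with DESeq2, -0.0309 with DESeq2 and the block, -0.0139 with RLE size factors, -0.00917 and -0.0267 (block) with replicate 3 as in the source values, and -0.0761 with the block and without replicate 1. Pds5b was at -0.0698 to 0.173 with 1 replicate left out, -0.0118 and -0.0229 (block) with replicate 3 as annotated, and -0.0634 with the block and without replicate 2. The fits with the block and the replaced plates, those in auxin-treated cells only and the terms for the difference between conditions were chosen after seeing the data.

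Along the G2/M markers the count of 1 was 0 in control cells only, in auxin-treated cells only, without the replicate block and with any 1 replicate left out (0 to 0), and 1 in the other 6 alternatives. Over all genes the 213 calls became 439 with DESeq2, 450 with no filter, 48 in control and 89 in auxin-treated cells only, 56 without the block, and 112, 151 and 89 without replicate 1, 2 and 3. Changes of sign were Smc3 at -0.0389 to 0.0835 with 1 replicate left out, -4.11e-06 with DESeq2, -0.00207 with RLE, -0.00302 in auxin-treated cells and -0.0132 above 4000 detected genes, Stag1 at -0.0976 to 0.0208 with 1 replicate left out, 0.00843 with no filter and 0.0365 in control cells, and Nipbl at -0.0256 when thinned. Mau2 was at -0.140 to 0.0987 with 1 replicate left out, 0.0272 with no filter and 0.0686 in auxin-treated cells, and Wapl at -0.134 to 0.0910 with 1 replicate left out and 0.0486 in auxin-treated cells. Pds5a was at -0.0227 to 0.130 with 1 replicate left out, -0.103 in control cells, -0.0916 when thinned and -0.0311 with replicate 3 as annotated. Along the G1/S markers the count was 0 throughout. Over all genes the 183 calls became 468 with DESeq2, 519 with no filter, 383 with replicate 3 as annotated, 29 in control and 26 in auxin-treated cells only, 15 without the block, and 37, 105 and 29 without replicate 1, 2 and 3. Nipbl was at 0.0400 in auxin-treated cells, and Pds5b at 0.270 there and at 0.0597 with replicate 3 as annotated.

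The median pair correlation of 0.0281 was 0.154 on raw counts. When thinned it was lower in each set, at -0.0188 to 0.0426 over the sets in place of 0.00786 to 0.0641. Its difference between conditions was 0.0522 on raw counts, 0.0149 above 4000 detected genes, -0.00353 when thinned, -0.00203 with replicate 3 as annotated and -0.0173 to 0.0216 with 1 replicate left out. The Stag2 to Stag1 difference was -0.0897 to 0.134 with 1 replicate left out. The median over the 10 genes of the mean share of cells with a UMI, 79.0%, was 57.9% after thinning. The cause of these changes was not tested. Pds5b to Pds5a was at 0.0567 to 0.550 with 1 replicate left out, and Pds5a with auxin at -0.412 to -0.105. With 3 replicates, the width of the intervals limits what the auxin comparison can show, less so with the replicate block.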
